A study of Mus musculus with 5 samples.

Results

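The 10 genes described here, Piwil2, Piwil4, Gtsf1, Mov10l1, Asz1, Tdrkh, Tdrd1, Tdrd5, Tdrd9 and Mael, make or use PIWI-interacting RNAs (piRNAs). Each gene was read from every probe set that the array's annotation pairs with 1 of these symbols and no other, which gave 13 of 34945 probe sets with a single gene symbol, and 10 of 18193 genes. Piwil4, Gtsf1 and Asz1 had 2 probe sets and the other 7 genes 1 each. They were compared between ovaries of Lhx8 null and of wild type newborn mice. Both groups were female, of postnatal day 0.5 and of the C57/BL6/129SVEV hybrid background. The null group had 3 arrays (replicates 1, 2 and 3) and the wild type group 2 (replicates 2 and 3), and each array measured 1 pool of 50 whole ovaries from at least 25 animals. Pools are the replicates, so n counts pools and not animals. The sources used here do not say how the Lhx8 allele was inactivated.

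piRNAs are small RNAs of germ cells that guide PIWI proteins to transposon transcripts and, in the male germline of the mouse, to transposon promoters that are then methylated. Long precursor transcripts are cut at the outer membrane of mitochondria, trimmed and loaded onto PIWI proteins, and the loaded proteins cycle with Tudor domain proteins in granules beside the nucleus called nuage. Loss of most of these genes blocks spermatogenesis in male mice, while oocytes of the mouse also use small RNAs made by Dicer, and Mael limits the LINE-1 retrotransposon in fetal oocytes. Whole ovaries hold germ cells and somatic cells, so fewer germ cells and less RNA per germ cell cannot be told apart in any value below.

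Lhx8, whose LIM homeodomain protein acts in oocytes, had signals of 332.6, 159 and 347.4 on null arrays, against 6450.1 and 5223.1 on wild type arrays, which checks the labels. Signals are the deposited array intensities, and all log2 changes are null minus wild type after quantile normalisation of log2(signal + 16). Correlations across probe sets were 0.960 to 0.974 between null arrays, 0.970 between wild type arrays and 0.905 to 0.931 between groups. General germ cell genes were read from their signals in both groups, with no detection call. With no gene left out for brightness, 8 of 9 measured general germ cell genes were lower in null ovaries (15.2% of all genes were), among them Dazl, an RNA-binding protein gene (log2 change -1.81, SE 0.20). Their summed signal was 6840 to 10268 on null and 44273 to 47370 on wild type arrays, and none was at 0. The null means of Dppa4 (103) and Dnd1 (132) were under the cutoff of 150 used to leave out dim genes. The control BioC had a mean signal at its 5' probe set that was 2.26 times that of wild type in the null group, and the control CreX one that was 2.02 times. At both, every null array lay above every wild type array. A technical difference between the groups therefore cannot be told apart from genotype, and its part in the results was not tested.

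All 10 genes were lower in Lhx8 null ovaries at 1 or more probe sets, Piwil4 only under some settings. In the fit over all probe sets, with dim ones kept, 12 of the 13 were lower at an adjusted p below 0.05 (limma, two-sided, Benjamini-Hochberg), where 12.9% of all 34945 probe sets were lower. None was higher. For the same 12 every null signal lay below every wild type signal, against 24% of all probe sets. The 13th, the dimmer of the 2 Piwil4 probe sets, overlapped between the groups. The log2 changes ran over a wide range, and the largest falls, those of Tdrd1 and Gtsf1, were over 3 log2 units larger than that of Tdrkh. The plot of signals by array shows the separation and the plot of changes gives the interval of each probe set.

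**Figure D1:**
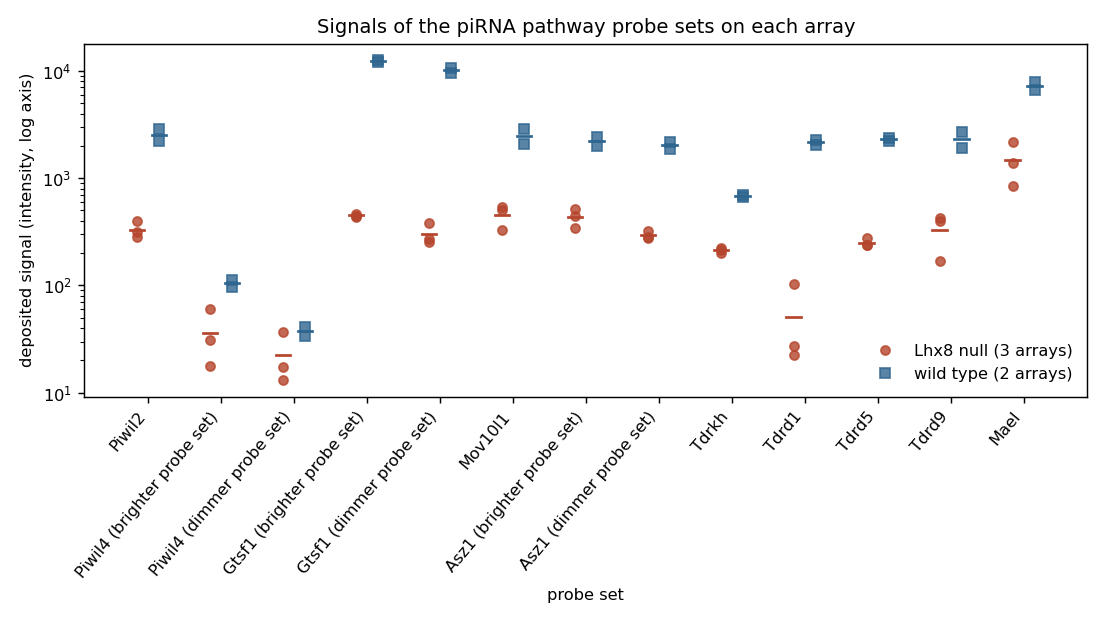
Deposited signal (log axis) of the 13 probe sets of the 10 piRNA genes on each array, with Lhx8 null arrays as circles and wild type arrays as squares and a bar at each group mean. Every null circle lies below every wild type square for 12 probe sets, and only the dimmer Piwil4 probe set overlaps.

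**Figure D2:**
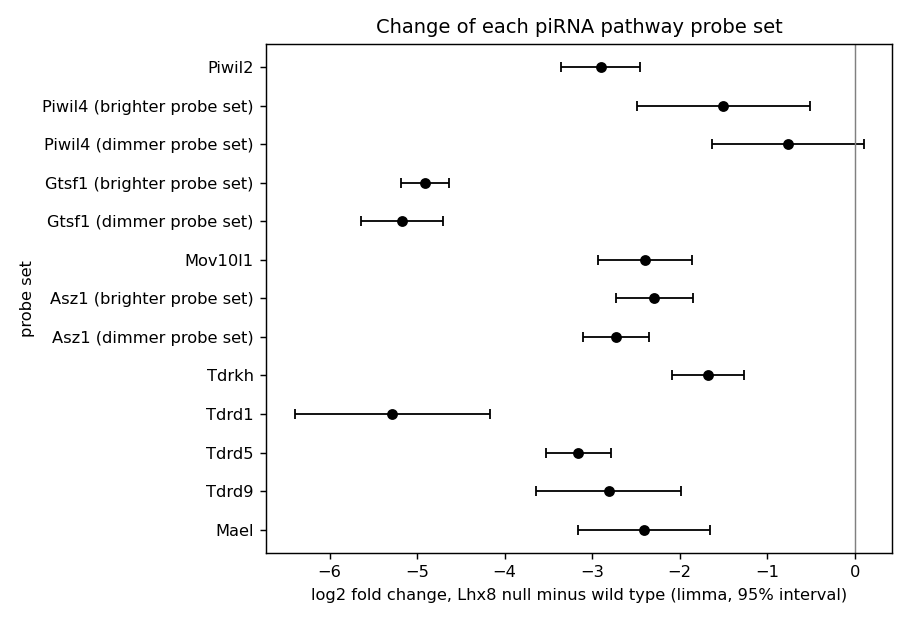
Log2 fold change, Lhx8 null minus wild type, of each probe set with its 95% interval from limma. Tdrd1 and both probe sets of Gtsf1 lie between -5.28 and -4.91, Tdrkh is at -1.68, and the interval of the dimmer Piwil4 probe set reaches above 0.

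The promoters of 9 of the 10 genes were matched by symbol in the RefSeq table (GRCm38.p6), as the 250 bases before the most upstream listed start. Tdrd1 had 3 listed starts and Piwil4 had 2, so their matches and positions depend on that choice. Piwil2 was not matched. The windows were searched on both strands for 3 hexamers of the homeodomain type (TAATTA, then TAATTG as a variant of it, then TGATTG as a further variant). They were also searched for CACGTG, the E box read by basic helix-loop-helix proteins such as MAX, and for GGCGGGAA, an E2F-type site. Whether the genes share control was not tested. CACGTG stood in 4 of the 9 windows (Mov10l1, Tdrd1, Tdrd9 and Mael) and in 6.04% of the windows of 27025 genes. TGATTG stood in 4 of 9 (Tdrd1, Tdrd9, Tdrkh and Mael) and in 13% of all windows, TAATTG in 1 of 9 (Tdrkh) and 7.33%, TAATTA in 0 of 9 and 4.91%, and GGCGGGAA in 0 of 9 and 1.91%. All matches to TGATTG and TAATTG except that of Tdrd1 overlap a CCAAT box, the letters CCAAT on either strand. A match is a description of letters and not a site. The windows of the 9 genes held 7 to 40 CpG dinucleotides (median 15), against a median of 6 over all genes. CACGTG and GGCGGGAA hold a CpG themselves, so their shares over all windows are not a background matched to these windows. Shown 5' to 3', with capitals for the letters of any match, are the 4 windows with more than 1 match, ordered by fall from Tdrkh to Tdrd1, and that of Gtsf1, which had none.
Tdrkh, chr3:94412994-94413243, plus strand: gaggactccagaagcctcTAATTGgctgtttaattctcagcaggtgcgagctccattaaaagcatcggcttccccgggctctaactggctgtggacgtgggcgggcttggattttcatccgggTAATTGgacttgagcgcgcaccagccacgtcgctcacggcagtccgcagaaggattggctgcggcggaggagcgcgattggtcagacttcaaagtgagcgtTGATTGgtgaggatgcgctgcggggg
Mael, chr1:166238745-166238994, minus strand: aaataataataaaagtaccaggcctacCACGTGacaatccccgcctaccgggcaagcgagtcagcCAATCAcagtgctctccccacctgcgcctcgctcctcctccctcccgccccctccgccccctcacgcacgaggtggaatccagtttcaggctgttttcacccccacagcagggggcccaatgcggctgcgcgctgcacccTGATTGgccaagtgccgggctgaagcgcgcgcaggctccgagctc
Tdrd9, chr12:111971309-111971558, plus strand: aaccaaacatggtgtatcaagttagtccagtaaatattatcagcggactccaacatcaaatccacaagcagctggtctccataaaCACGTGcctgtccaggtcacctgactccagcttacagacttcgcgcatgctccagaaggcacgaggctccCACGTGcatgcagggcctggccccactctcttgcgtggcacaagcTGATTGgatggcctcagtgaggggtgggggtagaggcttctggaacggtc
Tdrd1, chr19:56825959-56826208, plus strand: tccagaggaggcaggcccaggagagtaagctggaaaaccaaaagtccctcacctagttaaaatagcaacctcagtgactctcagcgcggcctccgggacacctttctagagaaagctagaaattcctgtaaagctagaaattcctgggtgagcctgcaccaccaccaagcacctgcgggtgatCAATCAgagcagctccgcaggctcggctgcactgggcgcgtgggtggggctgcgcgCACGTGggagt
Gtsf1, chr15:103430428-103430677, minus strand: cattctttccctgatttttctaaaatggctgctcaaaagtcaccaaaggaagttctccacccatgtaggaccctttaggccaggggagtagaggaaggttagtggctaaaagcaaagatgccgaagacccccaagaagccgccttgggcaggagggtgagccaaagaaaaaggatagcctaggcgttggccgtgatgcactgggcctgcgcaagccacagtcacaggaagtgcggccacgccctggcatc
CACGTG lies 11 to 6 bases before the start in Tdrd1, 165 to 160 and 95 to 90 bases before it in Tdrd9, and 223 to 218 bases before it in Mael. Tdrkh has TAATTG at 232 to 227 and 127 to 122 bases and TGATTG at 26 to 21 bases before its start. Tdrd1 with its large fall held matches and Gtsf1 with a fall of like size held none.

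Of the PIWI proteins and their direct partner, Gtsf1 changed most and Piwil4 was near the lower end of the signal range. Piwil2 (probe set 1449170_at) encodes MILI, the PIWI protein that cuts transposon transcripts and feeds the amplification of piRNAs. Its signals were 312, 281.5 and 397.4 on null arrays, against 2839 and 2237.4 on wild type arrays. The groups did not overlap, and the highest null signal was far under the lowest wild type signal. The means were 330 ± 60.1 (SD, n = 3) in null and 2538 ± 425 (SD, n = 2) in wild type ovaries, a log2 change of -2.90 (SE 0.20, adjusted p = 9.27e-05).

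Piwil4 encodes MIWI2, which enters the nucleus of fetal male germ cells and directs DNA methylation of transposons. Its brighter probe set (1447564_x_at) had 17.8, 60.3 and 30.7 on null arrays, against 96.7 and 112.5 on wild type arrays. The dimmer one (1439716_at) had 36.8, 13 and 17.2 on null arrays, against 33.8 and 40.6 on wild type arrays. All 10 values lie under the brightness cutoff of 150 below which genes were left out of the gene fit, so Piwil4 was dim in both groups. The brighter probe set passed at -1.50 (SE 0.43, adjusted p = 0.0369), a call that 9 of 12 alternative settings removed (adjusted p from 0.0231 to 0.193 over all 12), among them every removal of 1 array except that of null replicate 2. The dimmer one did not pass (-0.76, SE 0.38, adjusted p = 0.188).

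Gtsf1 encodes a small zinc finger protein that binds loaded PIWI proteins and speeds their cutting of target RNA. Its brighter probe set (1441836_x_at) had 444.8, 466.3 and 438.5 on null arrays, against 11951.7 and 12607 on wild type arrays. The second (1452967_at) had 254.4, 382 and 269.7 on null arrays, against 9589.6 and 10733.5 on wild type arrays. Within each group the arrays lay close together, and between groups the mean signal was 27.3 times and 33.6 times higher in wild type. The log2 changes were -4.91 (SE 0.12, adjusted p = 3.83e-06) and -5.18 (SE 0.20, adjusted p = 1.75e-05), so both probe sets gave falls of like size.

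The genes for cutting and trimming piRNA precursors fell, Tdrkh least among them. Mov10l1 (1419340_at) encodes the RNA helicase that binds precursor transcripts. It had 542.5, 325.4 and 502.9 on null arrays, against 2850.4 and 2095.9 on wild type arrays, a change of -2.39 (SE 0.23, adjusted p = 0.000377). Asz1, also called GASZ, encodes an ankyrin repeat protein of the mitochondrial surface that holds the processing machinery. Its brighter probe set (1424939_at) had 519.2, 341.7 and 440.3 on null arrays, against 1976 and 2415.9 on wild type arrays, and changed by -2.29 (SE 0.19, adjusted p = 0.000178). Its other probe set (1422402_a_at) had 277.8, 284.1 and 320.9 on null arrays, against 1864.6 and 2187.3 on wild type arrays, and changed by -2.73 (SE 0.16, adjusted p = 6.13e-05). Neither gene's groups overlapped.

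Tdrkh (1453366_at) encodes a Tudor and KH domain protein that recruits the trimming enzyme to mitochondria. It had 222.5, 202.2 and 212.1 on null arrays, against 664 and 694.9 on wild type arrays. Both groups were tight, with means of 212 ± 10.2 (SD, n = 3) in null and 679 ± 21.8 (SD, n = 2) in wild type ovaries. The change was -1.68 (SE 0.18, adjusted p = 0.00053), with a 95% interval of -2.08 to -1.27.

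Other enzymes of the same steps, from a list of 23 further piRNA pathway genes, were lower too in the gene fit, in which each gene stands for its brightest probe set and the 40% dimmest genes are left out. Pld6, the mitochondrial nuclease that cuts precursors, had 116.3, 79.5 and 110.6 on null arrays, against 588.6 and 581.1 on wild type arrays (log2 change -2.47, SE 0.22, adjusted p = 4.9e-05). Pnldc1, the enzyme that trims piRNA 3' ends, had 149.3, 134 and 141.9 on null arrays, against 552.9 and 648.7 on wild type arrays (-2.06, SE 0.20, adjusted p = 6.38e-05). Exd1, an RNA-binding partner of Tdrd12 in piRNA biogenesis, had 66.4, 49 and 55.7 on null arrays, against 945.7 and 924 on wild type arrays, the largest fall of the list (-3.78, SE 0.22, adjusted p = 6.07e-06). None of these 3 genes overlapped between groups, and, as with Tdrd1 below, the null means of all 3 lay under the brightness cutoff, so they passed the filter through wild type alone. When no gene was left out their adjusted p were 0.000213 for Pld6, 0.000272 for Pnldc1 and 3.5e-05 for Exd1. Henmt1, which methylates the 3' ends, was too dim for the gene fit, and changed by -1.63 (SE 0.38, adjusted p = 0.0121) when no gene was left out for brightness.

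Among the nuage proteins, Tdrd1 lay within the range of dim probe sets in null ovaries. Tdrd1 (1421513_at) encodes a protein with several Tudor domains that binds methylated arginines of MILI. It had 27, 22.3 and 104 on null arrays, against 2055.5 and 2272.1 on wild type arrays. Null replicate 3 was several times brighter than the other null arrays and still far below wild type. The change was -5.28 (SE 0.48, adjusted p = 0.00028), and its size depends on the added constant: it was -4.35 with 64 and -5.85 with 1 in place of 16. Tdrd1 passed the brightness filter only through its wild type signal.

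Tdrd5 (1456391_at), which joins a Tudor to LOTUS domains, had 237.5, 237.8 and 275.1 on null arrays, against 2231.3 and 2387.4 on wild type arrays. The arrays of each group were nearly equal, and the change was -3.16 (SE 0.16, adjusted p = 4.56e-05). Tdrd9 (1453357_at), a Tudor protein with a helicase domain that works with MIWI2, had 425.5, 169.3 and 397.7 on null arrays, against 2663.5 and 1924.4 on wild type arrays. Its spread was wider, with null replicate 2 lowest, and the change was -2.81 (SE 0.36, adjusted p = 0.00115). Mael (1436837_at), an HMG box protein of nuage, had 1395.6, 842.3 and 2151.1 on null arrays, against 7929.7 and 6577 on wild type arrays. Mael kept signals well above the brightness cutoff of 150 on all null arrays, and the change was -2.41 (SE 0.33, adjusted p = 0.00152).

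The RNA helicase gene Ddx4, the classical nuage marker, changed by -2.70 (SE 0.20, adjusted p = 1.79e-05) in the gene fit. The Tudor domain genes Rnf17 and Stk31 changed by -2.65 (SE 0.22) and -2.18 (SE 0.25). Gpat2, whose protein binds MILI, changed by -1.57 (SE 0.26). Tdrd7, a Tudor protein of nuage that is also used outside the germline, had 455, 636.4 and 487.8 on null arrays, against 920 and 714 on wild type arrays. This was the smallest fall among the list's genes tested in the gene fit (-0.62, SE 0.20, adjusted p = 0.0273). With its probe sets averaged Tdrd7 was at -0.17 (adjusted p = 0.646). The call was lost in 5 of 15 alternatives, among them also without null replicate 3 (adjusted p = 0.065), without wild type replicate 2 (adjusted p = 0.195) and without wild type replicate 3 (adjusted p = 0.0565).

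In the whole list of 23 further pathway genes 19 had a probe set. With no gene left out for brightness, 14 of the 19 were lower, 2 higher and 3 did not pass, with a median log2 change of -1.63, while 15.2% of all 18193 genes were lower, 15.8% higher and the median over all of them was -0.02. In the gene fit 12 were tested, of which 10 were lower and 2 higher, where 22.3% of 10916 genes were lower and 25.6% higher. As 3 of the 10 passed its filter through wild type alone, the count over all 19 is the one to read. The other genes that fell were Tex15, a nuclear partner of PIWI-directed methylation (-1.36, SE 0.24), and the chaperone gene Hsp90aa1 (mean signal 12934 in null and 20451 in wild type, SE 0.13 on the log2 scale, adjusted p = 0.000371). The genes that rose were Prmt5 (0.47, SE 0.13, adjusted p = 0.0178) and Wdr77 (0.81, SE 0.11, adjusted p = 0.000519), which encode the enzyme and the partner that methylate arginines of PIWI and of many other proteins. Prmt5 stood at 0.17 (adjusted p = 0.437) with arrays centred on their medians, which moved the median of all tested genes to -0.18, at 0.43 (adjusted p = 0.068) without null replicate 2 and at 0.34 (adjusted p = 0.13) without wild type replicate 3. Of the 7 dim genes, 4 were lower in the fit without the filter (Morc1, Tdrd12, Piwil1 and Henmt1), and Mybl1, Btbd18 and Gtsf1l did not pass. These 7 names were chosen after their values were seen. Tdrd6, Fkbp6, Spocd1 and Gtsf2 were not analysed here.

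**Figure D3:**
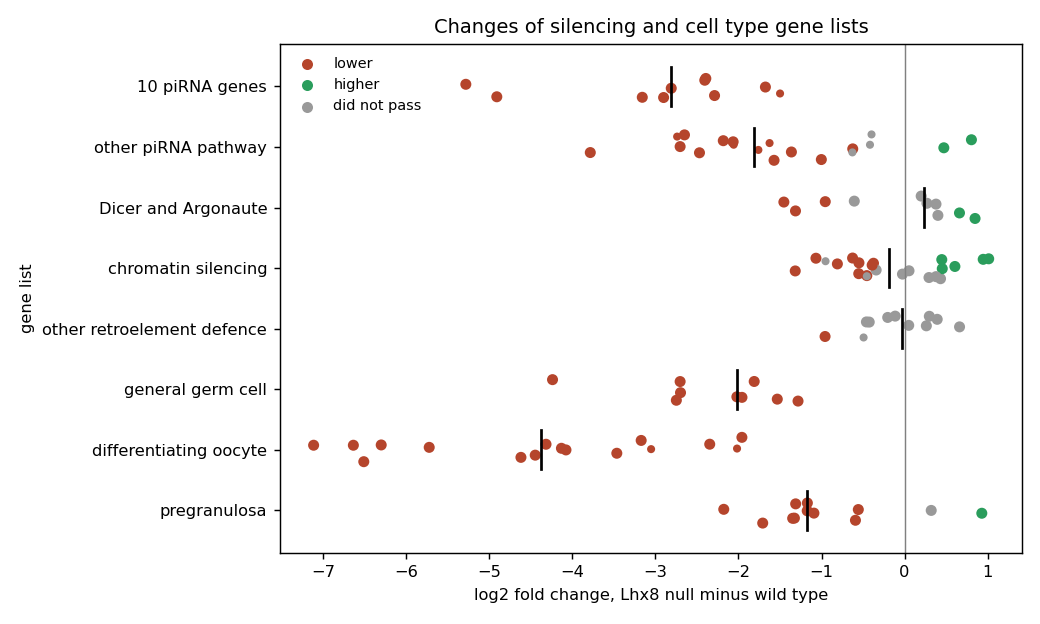
Log2 fold change, Lhx8 null minus wild type, of genes in 8 lists, with a bar at the median of the genes tested in the gene fit and small points for genes too dim for it. The 10 piRNA genes lie at or below -1.50, while the Dicer and Argonaute, chromatin silencing and other defence lists lie on both sides of 0.

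Silencing genes outside the piRNA pathway were called in both directions. Of 10 genes of the microRNA and siRNA machinery, 3 were lower, 2 higher and 5 did not pass (median 0.23), shares close to the 22.3% lower and 25.6% higher over all tested genes. Without wild type replicate 2 the counts were 1 lower and 1 higher, and without wild type replicate 3 they were 2 lower and 1 higher. Dicer1, which cuts the small RNAs that oocytes use against transposons, had 739.6, 661.6 and 746.2 on null arrays, against 2047.6 and 2036.8 on wild type arrays (log2 change -1.45, SE 0.13, adjusted p = 4.93e-05). Drosha, which cuts microRNA precursors in the nucleus, changed by -1.31 (SE 0.32, adjusted p = 0.00843), with null replicate 1 at 2132.6 and the other null arrays at 5064.1 and 5354.4. Its call was not kept without wild type replicate 2 (adjusted p = 0.0604) or without wild type replicate 3 (adjusted p = 0.0745). Dgcr8, the partner of Drosha, rose by 0.85 (SE 0.19), and Ago2, the slicing Argonaute, rose by 0.66 (SE 0.15), while Ago4 fell by 0.95 (SE 0.22). Without wild type replicate 2 the calls of Ago2 (adjusted p = 0.0647) and Ago4 (adjusted p = 0.0764) were lost, and without wild type replicate 3 that of Dgcr8 (adjusted p = 0.0519). Dgcr8 was at 0.13 when its probe sets were averaged and Ago2 at 0.36 (adjusted p = 0.122) after median centring, which left 4 lower and 1 higher.

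Of 20 tested genes that silence transposons through chromatin, 9 were lower, 5 higher and 6 did not pass (median -0.18), against 22.3% lower and 25.6% higher over all tested genes. The counts were 5 lower and 2 higher without wild type replicate 2, 6 lower and 4 higher without wild type replicate 3, 6 lower and 5 higher without null replicate 2, and 6 lower and 3 higher with probe sets averaged. The falls included Suv39h2, a histone H3 methyltransferase gene of germ cells (-1.32, SE 0.23), Pphln1 and Mphosph8 of the HUSH complex (-1.07 and -0.55), and Uhrf1, a cofactor of Dnmt1 (-0.81, SE 0.15). The rises included Trim28, the corepressor of KRAB zinc finger proteins (0.95, SE 0.15), and the methyltransferase gene Ehmt2 (1.01, SE 0.17). After median centring 10 were lower and 2 higher. Of 10 other genes of retroelement defence 1, Tex19.1, was lower (-0.96, SE 0.25, adjusted p = 0.0132). Leaving out wild type replicate 2 (adjusted p = 0.094) or replicate 3 (adjusted p = 0.0773) removed the call for Tex19.1. Median centring left 3 of them lower. Transposon transcripts themselves were not analysed here.

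The falls of the 10 genes were set against those of general germ cell genes, to ask whether they went beyond those of Ddx4 and Dazl. Subtracting the mean log2 level of Ddx4 and Dazl from each array left Gtsf1 and Tdrd1 far lower in null ovaries, while Mov10l1, Asz1 and Mael were close to 0. Asz1 was read here from its brighter probe set, which changed by -2.29. Its other probe set changed by -2.73 and was not set against Ddx4 and Dazl on its own. The choice of Ddx4 and Dazl was made with their own changes known, and Ddx4 belongs to the piRNA pathway too. All genes share the array noise of the 2 genes subtracted, and limma takes the spread common to all genes as well known. A fit with each gene's own variance on 3 residual degrees of freedom was therefore added after the data were seen. The p-values of the fits differ in both directions, with limma's adjusted p far smaller for Gtsf1 (1.58e-12, against 0.0105 with own variance) and larger for Piwil2 (0.0892, against 0.016). The alternatives below come from limma's fit. Against their own mean, Ddx4 and Dazl themselves stood at -0.45 and 0.45 (own-variance adjusted p = 0.0104 each), so differences of that size depend on which of them is subtracted. Of 9 tested members 4 were lower than the germ cell genes with own variance (Gtsf1, Tdrd1, Tdrd5 and Piwil2) and 0 higher, one of them, Tdrd1, having passed the filter through wild type alone, where 0.376% of all tested genes were lower and 92.9% higher. In limma's own fit 3 of 9 were lower and 0 higher, where 0.513% of all genes were lower and 96.4% higher. Most genes of other cell types count among the higher, so these shares say little about germ cell genes. Exceptions in limma's fit were the pregranulosa genes Runx1 (0.08, adjusted p = 0.851) and Inhbb (0.55, adjusted p = 0.168). A fall beyond Ddx4 and Dazl was not particular to piRNA genes. The same fit called all tested differentiating oocyte genes lower except Sohlh1 (0.30) and Sohlh2 (-0.09), with Dppa3 at -1.88, Nobox at -1.82 and Kit at -1.21. Of these oocyte genes 7 passed the brightness filter through wild type alone. Elavl2 of the general germ cell list (-1.98) and Exd1 of the pathway list (-1.53) were lower, and no other tested gene of either list was.

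Gtsf1 stood at -1.23, -0.79 and -1.56 relative to Ddx4 and Dazl on null arrays, against 1.24 and 1.68 on wild type arrays, in log2 units. The difference was -2.65 (SE 0.33, adjusted p = 0.0105, own variance, 95% interval -3.71 to -1.59). Tdrd1 stood at -4.72, -4.55 and -3.53 on null arrays, against -1.43 and -1.06 on wild type arrays, a difference of -3.03 (SE 0.50, adjusted p = 0.0136, own variance). As the null signals of Tdrd1 are dim, that size depends on the processing and ran from -3.56 to -2.17 over 17 alternatives. Neither gene's groups overlapped. With Dazl alone, Sycp3 alone or the mean of all 9 tested general germ cell genes in place of both, the difference was -3.10, -2.21 and -2.58 for Gtsf1 and -3.47, -2.59 and -2.95 for Tdrd1. Of those 9 genes, Dnd1 and Dppa4 passed the brightness filter through wild type alone.

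Tdrd5 and Piwil2 differed from the mean of Ddx4 and Dazl by amounts similar to the difference between those 2 genes, and neither call held under every choice of germ cell gene. Tdrd5 differed by -0.90 (SE 0.24, adjusted p = 0.0362, own variance), a call that limma's fit lost with Sycp3 alone (-0.46, adjusted p = 0.171), with either wild type replicate 2 (adjusted p = 0.0931) or wild type replicate 3 (adjusted p = 0.257) left out, and without null replicate 1 (adjusted p = 0.0853). Piwil2 differed by -0.64 (SE 0.12, adjusted p = 0.016, own variance) and did not pass in limma's fit (adjusted p = 0.0892), which called it without null replicate 2 (adjusted p = 0.0277) or without null replicate 3 (adjusted p = 0.0272), and with Dazl alone (-1.09, adjusted p = 0.00593). With Sycp3 alone Piwil2 was at -0.20 (adjusted p = 0.542) and with the whole germ cell list at -0.57 (adjusted p = 0.06). Mov10l1, Asz1, Mael and Tdrd9 had -0.14, -0.03, -0.15 and -0.55, with intervals from each gene's own variance of -0.77 to 0.49, -0.95 to 0.89, -0.92 to 0.62 and -1.67 to 0.56. All 4 intervals hold 0.

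Tdrkh had the opposite sign. It stood at -2.28, -1.95 and -2.59 relative to Ddx4 and Dazl on null arrays, against -3.02 and -2.70 on wild type arrays, so every null array was above every wild type array. The share of all genes separated in this way was not counted, and 92.9% of all tested genes were called higher on this scale with own variance. The null mean signal of Tdrkh was 212, with the brightness cutoff at 150, and the part of dim signal in its smaller fall was not tested. The difference of 0.58 (SE 0.27, adjusted p = 0.121, own variance) did not pass. In limma's fit it passed with Sycp3 alone (1.02, adjusted p = 0.00337), with the whole germ cell list (0.66, adjusted p = 0.0424), with probe sets averaged (0.74, adjusted p = 0.0422) and without null replicate 3 (0.72, adjusted p = 0.0286), while with Dazl alone it was at 0.13 (adjusted p = 0.751). Tdrkh has 1 probe set, so averaging left its own level as it was and changed the Ddx4 and Dazl levels subtracted. General germ cell genes themselves ranged from -1.28 for Dnd1 to -4.24 for Elavl2 in log2 change, so they did not fall by 1 common amount. Dnd1 and Dppa4, both in the whole germ cell list, had null means under the brightness cutoff.

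**Figure D4:**
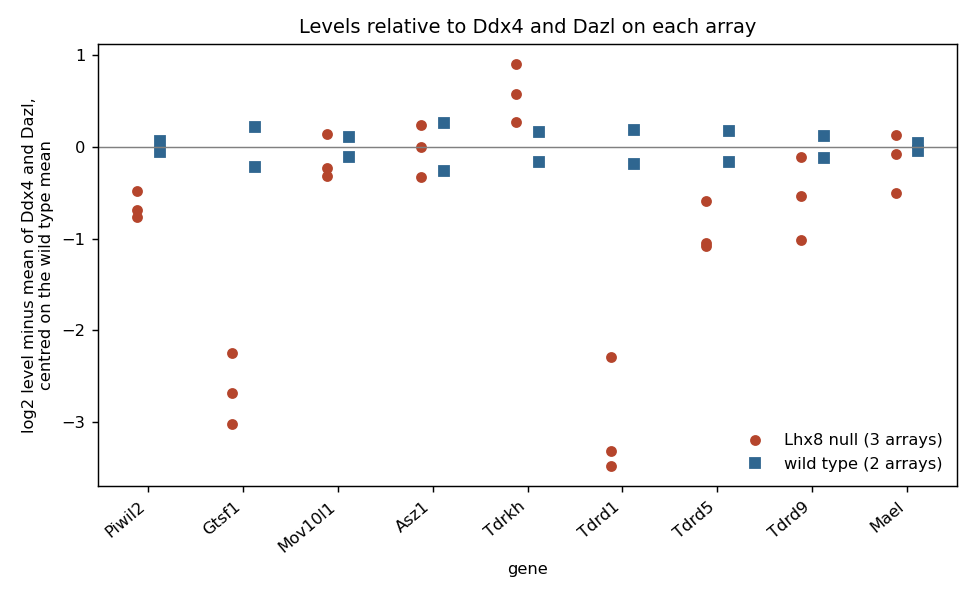
Log2 level of each tested piRNA gene minus the mean of Ddx4 and Dazl on the same array, centred on the wild type mean, with Lhx8 null arrays as circles and wild type arrays as squares. The null arrays of Gtsf1 and Tdrd1 lie over 2 log2 units below the wild type mean, those of Tdrkh lie above, and those of Mov10l1, Asz1 and Mael overlap with wild type.

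Most of the piRNA genes deviated in the same direction on null replicate 3 and on null replicate 2. Of the 9 tested genes, 8 lay above their null mean on null replicate 3 (median deviation 0.18 log2 units) and 8 below it on null replicate 2 (median -0.30), while null replicate 1 was in between (median -0.03). The mean of Ddx4 and Dazl deviated in the same order, by 0.36, -0.33 and -0.03 on null replicates 3, 2 and 1. On wild type replicates 2 and 3 the order was opposite, with median deviations of the piRNA genes of -0.04 and 0.04 and deviations of Ddx4 and Dazl of 0.12 and -0.12. These are descriptions of 3 pools and 2 pools. The same shares over all tested genes were not counted, so the deviations show nothing particular to the piRNA genes.

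The genes whose profile over the 5 arrays was nearest to the mean profile of the tested piRNA genes, by Euclidean distance of centred log2 levels and outside all gene lists, were Map7d2, Krt79, Syce1, Cnnm4 and Cds1, at distances of 0.31 to 0.44 log2 units. Syce1, a component of the synaptonemal complex, had mean signals of 359 ± 54.4 (SD, n = 3) in null and 2600 ± 51.5 (SD, n = 2) in wild type ovaries, and Map7d2 had 330 ± 66.9 (SD, n = 3) in null and 2747 ± 147 (SD, n = 2) in wild type ovaries.

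Other cell types differed between the groups in both directions. With no gene left out for brightness, where 15.2% of all genes were lower and 15.8% higher, 16 of 16 differentiating oocyte genes were lower (median -4.22), with Dppa3 at -4.13 (SE 0.19) and Kit at -3.46 (SE 0.20). That count and median include Lhx8 itself, the gene that defines the null group. Pregranulosa genes were lower in 10 of 12 and higher in 1 (median -1.17). Oviduct epithelium, stroma and smooth muscle, macrophage and endothelium genes were higher in 9 of 9, 7 of 8, 6 of 7 and 4 of 6, and lower in 0. Summed signals of the oviduct list were 24355 to 27938 on null and 6959.5 to 7409.2 on wild type arrays, and the part of tissue makeup in the falls of the piRNA genes was not tested.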

How the data were processed

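RNA of 5 pools of newborn mouse ovaries, 3 Lhx8 null and 2 wild type, was measured on 1 array each. The deposited values are linear intensities of single probe sets, and in the files their 2% trimmed mean is 500 on every array. For the wild type arrays the submitters' processing notes name GCOS; for the null arrays the sources used here name no software. No depth applies to arrays, and their number limits precision.

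Of 45101 probe sets 64 controls were left out. The rest were put on the scale log2(signal + 16) and quantile normalised. The gene fit used the brightest probe set of each of 18193 genes, without the 40% dimmest (10916 genes left), and the probe set fit all 34945 probe sets with 1 symbol. Both used limma 3.58.1 in R 4.3.3 (lmFit, eBayes with a trend), with Benjamini-Hochberg adjustment over all features of a fit and a threshold of 0.05. Values relative to germ cell genes came from the same fit after subtracting the mean of Ddx4 and Dazl. The steps were tested on simulated arrays.

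The 10 genes and the lists were chosen with earlier results of these data known. Named are the 10 genes, Lhx8, Ddx4, Dazl, up to 6 genes of a list with the smallest p, list genes of the piRNA pathway that rose, and the 5 genes nearest in profile. Other names were chosen after their values were seen. Alternatives covered scaling, constant, filter, probe set choice, variance model, threshold, replicate block, each array left out and the germ cell genes subtracted, and the fit with each gene's own variance was added after the data were seen. Nothing says that the pools share batches. Promoters are RefSeq windows of GRCm38.p6, 250 bases before the most upstream listed start. Figures were drawn with matplotlib 3.10.9.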

Additional observations from a re-analysis of the deposited data

How the results depend on the processing

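The log2 changes of the 9 tested piRNA genes kept direction and call in every alternative run for them (15 each, 13 for Tdrd1, which fell under the brightness filter without either wild type array), with all 9 or, without a wild type array, 8 of 8 lower. Their values ranged from -1.85 to -1.48 for Tdrkh and from -5.85 to -4.35 for Tdrd1. The replicate numbers 2 and 3 are shared by the groups but nothing says they pair the pools, and the deviations of equal numbers had a correlation of -0.016. With the replicate block 9 of 9 genes and 11 of 13 probe sets were lower, 2 genes were lower than the germ cell genes, and 5651 genes were called in all, against 5220. Leaving out 1 array gave 8 to 9 lower piRNA genes, 8 to 12 other pathway genes, 11 to 12 probe sets and 3389 to 5538 genes called in all (3389 without wild type replicate 3). Relative to Ddx4 and Dazl it gave 1 to 5 genes lower (1 without either wild type array, where Tdrd1 was not tested, and 5 without null replicate 3) and 0 to 1 higher. With Dazl alone 5 were lower, and with Sycp3 alone, the whole germ cell list or averaged probe sets 1, Tdrkh, was higher. Asz1 changed sign relative to the germ cell genes, to 0.018 with constant 64, 0.41 with Sycp3 alone and 0.044 with the whole list, and ran from -0.27 to 0.26 when 1 array was left out. Mov10l1 changed to 0.027 with averaged probe sets and 0.30 with Sycp3 alone, and Mael to 0.014 with averaged probe sets and 0.29 with Sycp3 alone, and ran from -0.28 to 0.037 when 1 array was left out. None of these passed. Mov10l1, Mael and Tdrkh have 1 probe set each, so averaging left their own levels as they were and changed the Ddx4 and Dazl levels subtracted. The cause of the other sign changes was not tested. Signals near background limit Piwil4 and the null values of Tdrd1. Median centring gave 1720 genes higher and 3422 lower, against 2791 and 2429.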
